A study of Mus musculus with 2 samples.

Results

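The urokinase system and its partner matrix metalloproteinases were followed here through 10 genes, namely the plasminogen activators Plau and Plat, the urokinase receptor Plaur, the metalloproteinases Mmp3, Mmp9, Mmp10, Mmp13 and Mmp14, and the tissue inhibitors Timp1 and Timp3. The genes were chosen by name, and every non-control probe whose RefSeq accession mapped to one of them was taken. This gave 16 of the 41174 non-control probes on the array, 41134 of which kept a usable spot on both arrays, and 10 of 18206 named genes. The study compared peeled epidermis of 2 mouse genotypes in the steady state, with 1 one-colour Agilent array each. The control carried floxed Nfkbiz alleles (Nfkbiz flox/flox), and the knockout carried the same alleles with K5-cre, a recombinase under the keratin 5 promoter, which is active in basal keratinocytes. Both groups therefore share the floxed alleles and differ in the transgene. Cells of the epidermis keep the gene where that promoter was never active in them or in the cells they came from. Skin was treated with 3.8% ammonium thiocyanate for 30 min at 37 °C before peeling, and the age, sex and number of mice behind each RNA sample are not given in the sources used here. With 1 array per genotype there was no replicate check and no test, a gene was called where it was at least 2-fold apart, and the ± values are standard errors from the scanner software, which take in technical error only, not mouse-to-mouse variation.

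Urokinase (Plau) and tissue plasminogen activator (Plat) cut plasminogen into plasmin, a broad protease that dissolves fibrin and activates several matrix metalloproteinase zymogens. The urokinase receptor (Plaur) holds urokinase on the cell surface, where keratinocytes at a wound edge use it to focus plasmin activity as they migrate. Matrix metalloproteinases are zinc enzymes that are made as inactive precursors, cut collagens, basement membrane proteins and cell surface proteins, and are held in check by the TIMP proteins. Several genes of this system are classic targets of AP-1, a transcription factor of FOS and JUN proteins, in injured or stimulated epithelium.

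The members did not differ between the arrays in 1 direction. Plaur was 3.01-fold lower on the knockout array and Mmp9 2.15-fold higher, and these were the 2 members at least 2-fold apart among the 8 that were measured on both arrays. Mmp10 was measured on the control array alone and was 2.14-fold lower on the knockout array by a bound that leaves out scanner error. Plau, Plat, Mmp3, Mmp14, Timp1 and Timp3 lay within 2-fold, and Mmp13 was not well above background on either array. Over the 12408 genes with a value on both arrays, 3.03% were called higher and 4.38% lower, and the members' counts of 1 in each direction rest on single genes. The higher and lower shares of all genes were 8.28% and 2.26% with median scaling, 3.7% and 3.69% with quantile normalization, 3.39% and 3.88% with cyclic loess and 1.48% and 1.85% with normexp. At 1.5-fold they were 10.1% and 13.2%, and at 3-fold 0.854% and 1.52%. Lower calls made up 6.05% of genes measured on at least 1 array and 7.77% with no background filter.

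Values are processed signals in arbitrary units. Differences are log2 values, knockout minus control, after each array was divided by its 75th percentile of signal, which was 194 for control and 226 for knockout. The lowest signal well above background was 12.7 in control and 12.1 in knockout epidermis. The median difference of all genes measured on both arrays was -0.04, and scaling by the median in place of the 75th percentile adds 0.35 to every difference. Relative to the median gene, Plaur stood at -1.55 and Mmp9 at 1.15 under either of these scalings. Nfkbiz, the targeted gene, had signals of 3100 and 1760 on the control and knockout arrays (-1.04 ± 0.20). It was 2-fold lower under 2 of the 5 scalings, and was at -0.69 with median scaling, -0.99 with quantile normalization and -0.97 with normexp. The sources used here do not place its probe relative to the deleted exons. All 9 keratinocyte markers were measured on both arrays and within 2-fold. Itga6 was just short of it, at -0.98 (1.97-fold lower), and the others lay between -0.31 and 0.05. Of 10 dermal fibroblast markers 8 were measured too, none of them 2-fold apart at its gene-level probe. Thy1 among them was at -0.26 by that probe and at -1.23 by its other probe. In such bulk tissue, fewer cells of a type and less RNA per cell cannot be told apart.

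**Figure D1:**
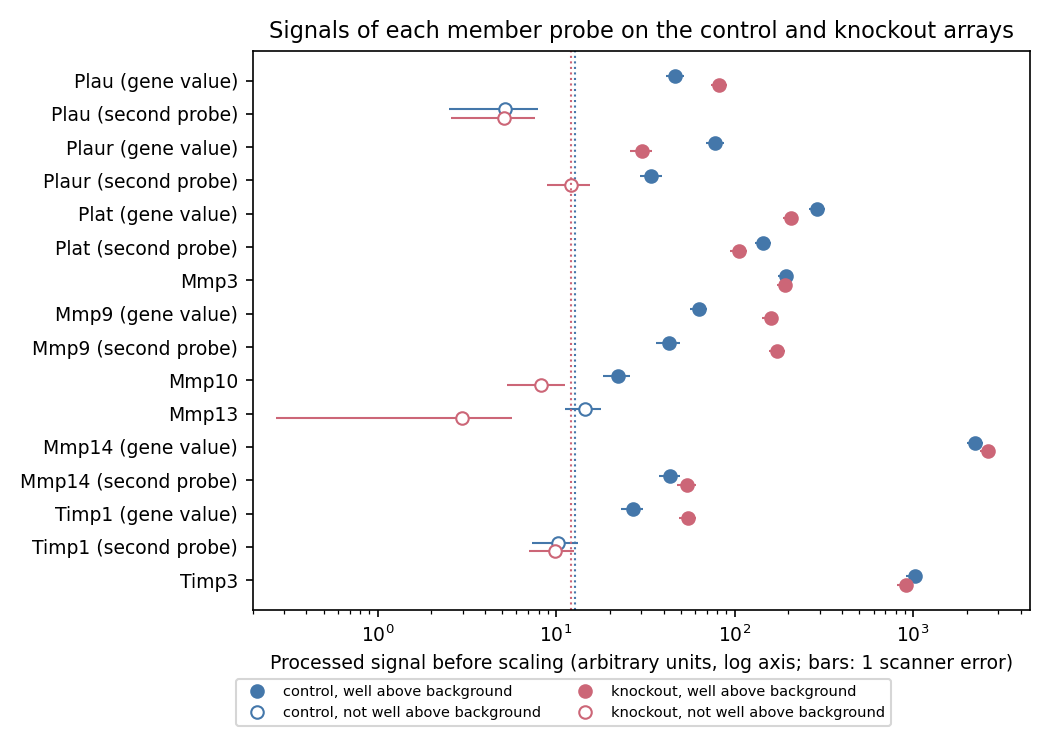
Processed signal of each of the 16 member probes on the control (blue) and knockout (red) arrays, on a log axis, with 1 scanner error as bars and open symbols for signals not well above background. Dotted lines mark the lowest signal well above background, at 12.7 and 12.1. Plaur and Mmp10 lie to the left on the knockout array and Mmp9 to the right.

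The promoter sequences of 4 members show what Plaur and the stromelysin and collagenase genes have in common. They hold the AP-1 motif TGAGTCA, read on either strand, in the bases just before the start of the gene. Of the 10 members, 7 had an entry in the RefSeq promoter table (GRCm38.p6), which holds 250 bases before and 50 after each start. Plau, Plat and Mmp9 had no entry, so their promoters were not searched. The motif was found in 4 of these 7, Plaur, Mmp3, Mmp10 and Mmp13, against 5.20% of all 32851 promoters in the table. It was not found in the windows of Mmp14, Timp1 and Timp3. Several genes of this system are known AP-1 targets, so the count is a description and was not tested against that share. Mmp3, Mmp10 and Mmp13 also lie in the same run of metalloproteinase genes on chromosome 9, so the matches in the 4 genes are not independent. The last 100 bases before the start are shown for these 4 genes, with the motif in capitals, and for Mmp14 for comparison, in which no base is in capitals. All 5 genes lie on the plus strand, and the windows are chr7:24462383-24462482 for Plaur, chr9:7445722-7445821 for Mmp3, chr9:7502242-7502341 for Mmp10, chr9:7272414-7272513 for Mmp13 and chr14:54431498-54431597 for Mmp14.
Plaur: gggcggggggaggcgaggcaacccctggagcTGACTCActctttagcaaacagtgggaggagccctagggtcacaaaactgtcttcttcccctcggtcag
Mmp3: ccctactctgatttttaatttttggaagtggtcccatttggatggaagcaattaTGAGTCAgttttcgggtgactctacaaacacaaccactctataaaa
Mmp10: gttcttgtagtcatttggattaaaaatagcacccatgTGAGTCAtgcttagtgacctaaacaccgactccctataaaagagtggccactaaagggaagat
Mmp13: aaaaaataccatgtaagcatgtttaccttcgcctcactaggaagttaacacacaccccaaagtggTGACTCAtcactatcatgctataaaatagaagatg
Mmp14: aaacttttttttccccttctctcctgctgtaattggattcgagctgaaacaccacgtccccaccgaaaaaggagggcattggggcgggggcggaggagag

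Counted back from the annotated start of the gene, the motif begins at base -69 in Plaur, -46 in Mmp3, -63 in Mmp10 and -35 in Mmp13. In Mmp3 and Mmp10 it reads TGAGTCA on the printed strand, and in Plaur and Mmp13 it reads TGACTCA there, which is the same motif on the other strand. The TATA motif TATAAA followed it in Mmp3, Mmp10 and Mmp13 and was found in 13.6% of all promoters. It began at -7, -29 and -16 in these genes, so its distance to the annotated start differed between them. The positions depend on that annotation, which was not tested. The NF-kB consensus was found in 0 of the 7 member promoters searched and in 4.51% of all. That count says nothing about Plau, Plat and Mmp9, which were not searched. No match of one of these motifs overlapped a match of another. A match is a run of letters in this window and was not tested as a bound site. Of the 4 genes that hold the AP-1 motif, Plaur and Mmp10 were lower on the knockout array, Mmp3 differed by -0.24 (0.11 under median scaling), and Mmp13 was too dim to measure.

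With 75th percentile scaling the urokinase receptor had the largest gene-level difference of the 8 members measured on both arrays, and with median scaling Mmp9 had, at 1.46. The gene-level probe of Plaur had a signal of 78.1 in control and 30.2 in knockout epidermis. The control signal was thus the higher one, and both were well above background. The log2 difference was -1.59 ± 0.26 (3.01-fold lower), at percentile 1.47 of all genes measured on both arrays. A second Plaur probe read 34.2 in control and 12.2 in knockout epidermis, where it was not well above background. Its difference was -1.71 ± 0.43 (3.27-fold lower), an estimate from a dim signal and not a minimum. Both probes thus lay in the same direction, with dim signals. Among genes with a mean signal between 40 and 100, where Plaur lies, 7.27% were at least 2-fold lower. Under median scaling Plaur was at -1.24, and under normexp background correction, which adds 50 to every signal and so draws dim probes together, it was at -0.73, under 2-fold.

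Both activators lay within 2-fold, in opposite directions. Plau had a signal of 46.5 in control and 82 in knockout epidermis at its measured probe, higher on the knockout array, with a log2 difference of 0.60 ± 0.23 (1.51-fold). Its other probe was not well above background on either array, at 5.21 and 5.11. Plau was thus read by 1 probe, and its difference was 0.17 under normexp. Plat read 290 and 207 at its brighter probe, lower on the knockout array, with a difference of -0.71 ± 0.20 (1.63-fold). Its second probe read 145 and 106, a difference of -0.67 ± 0.22. The 2 Plat probes differed from each other by less than 1 standard error of either, and Plat stayed below 0 under each of the 5 scalings, from -0.73 to -0.36. Plat therefore lay below the median gene and Plau above it on the knockout array, both within 2-fold.

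**Figure D2:**
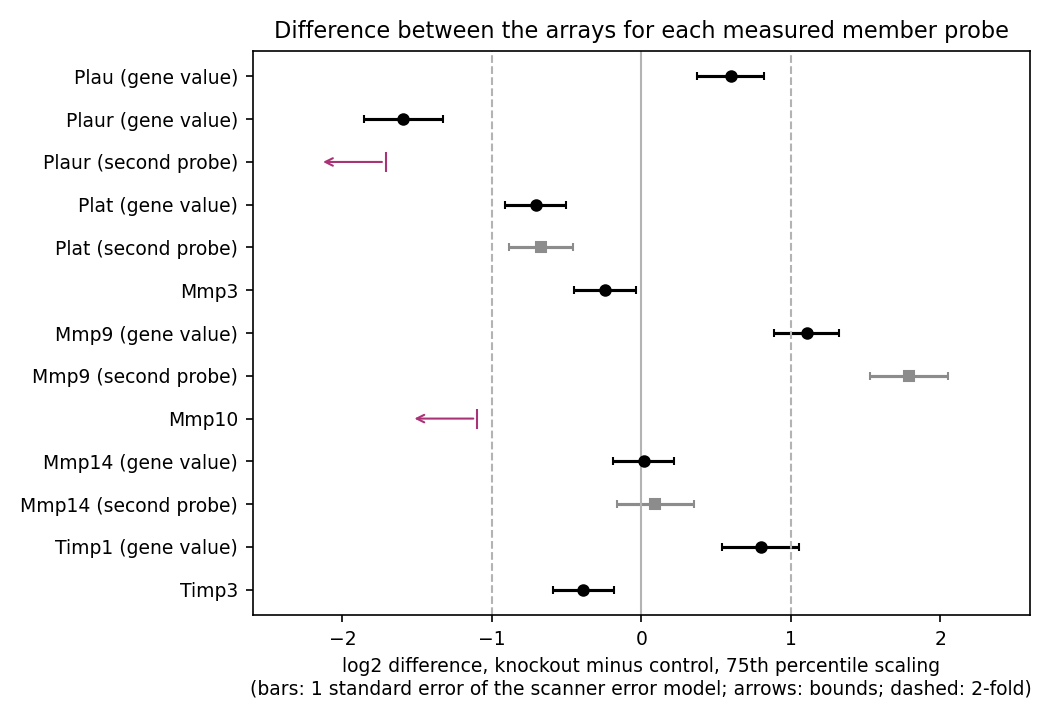
Log2 difference, knockout minus control, of each member probe measured on at least 1 array, with 1 standard error of the scanner error model. Black circles are the probes that give the gene value, grey squares second probes, and arrows start at the bound of probes measured on the control array alone. Plaur and Mmp9 lie beyond the dashed 2-fold lines, the bounds for Mmp10 and the second Plaur probe point down, and the 2 probes of Plat and of Mmp14 lie close together.

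Inhibitors, receptors and cofactors of plasminogen activation were listed beside the members, 22 genes in all. Of the 16 measured on both arrays, 2 were called lower and 0 higher, with a median of -0.05 against -0.04 for all genes. The lower ones were Serpinb2 and Vldlr. Serpinb2, which encodes plasminogen activator inhibitor 2, an inhibitor of urokinase, had a control signal of 29100 and a knockout signal of 9080 (-1.90 ± 0.20, 3.73-fold). Its second probe was at -2.09, and it was at least 2-fold lower under each of the 5 scalings. Vldlr, a lipoprotein receptor, read 225 and 111 (-1.24 ± 0.21, 2.36-fold lower) and fell short of 2-fold under median scaling (-0.89) and normexp (-0.89). The plasminogen-binding pair Anxa2 and S100a10 had differences of 0.52 and -0.13 at their gene-level probes. Anxa2 was at 0.07 by its other probe. Plasminogen itself, Plg, which is made mainly in the liver, had no probe measured on both arrays.

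Mmp9, a gelatinase of leukocytes and migrating keratinocytes, was the 1 member called higher at 2-fold. The array carries 1 of its 2 probes in 10 spots, which gives the only technical repeats among the members. Leaving out 1 spot that was marked as an outlier on both arrays, the 9 spots on the control array ranged from 57.9 to 66.8 with a median of 64.2, and those on the knockout array from 148 to 167 with a median of 158. The spots of the arrays did not overlap, and the lowest knockout spot was 2.22-fold above the highest control spot before scaling. The spot-by-spot log2 difference ranged from 0.95 to 1.23 after scaling, with a mean of 1.11 ± 0.09 (SD, 9 spots), a spread that covers the position on the array and not the mice. The gene-level difference was 1.11 ± 0.22 by the scanner error (2.15-fold), at percentile 97.8 of all genes. The other probe, with 1 spot, read 42.9 and 173, a difference of 1.79 ± 0.26 (3.46-fold). The probes shared the direction and differed in size, and their mean was 1.45. Among genes with a mean signal between 100 and 1000, where Mmp9 lies just above the lower end, 3.6% were called higher. Differences spread more widely in the adjoining class of 40 to 100, with an SD of 0.73 against 0.60. Under normexp Mmp9 was at 0.62, under 2-fold.

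**Figure D3:**
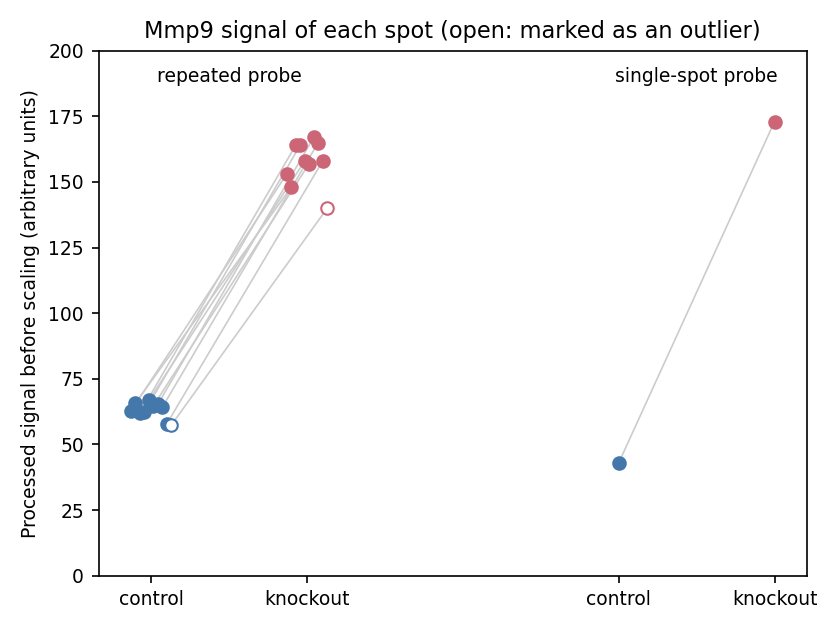
Processed signal before scaling of each Mmp9 spot on the control (blue) and knockout (red) arrays, for the probe repeated in 10 spots and for the single-spot probe, with lines joining the same spot position and open symbols for the spot marked as an outlier. The 9 other spots of the repeated probe lie between 57.9 and 66.8 on the control array and between 148 and 167 on the knockout array.

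Markers of cells that can make Mmp9 are given beside it. Of 7 neutrophil markers with a named probe, 0 were well above background on either array, Ngp at 6.96 and 8.1 and Mpo at 9.18 and 9.45 among them. Of 6 Langerhans cell markers, all measured, 1 was at least 2-fold higher and 0 lower. Their summed level was 69.2 in control and 97.1 in knockout epidermis, in multiples of each array's 75th percentile. Cd207, which encodes langerin, read 166 and 608 (3.14-fold higher), and Cd74 and the class II genes H2-Aa and H2-Ab1 differed by 0.76, 0.68 and 0.40. Epcam, at -0.38, and Itgax, at 0.11, complete that list. Of 7 monocyte and macrophage markers with a named probe, 4 were measured, with a summed level of 4.31 and 6.07. Adgre1, Csf1r and Cd14 in that list differed by 0.48, 0.53 and 0.48 and Itgam by -0.25, and Lyz2 was not well above background on either array. The part of Langerhans cells and macrophages in the Mmp9 difference was not tested.

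The stromelysins and the collagenase Mmp13 lie together in a run of 10 metalloproteinase genes on mouse chromosome 9, in the order Mmp13, Mmp12, Mmp1b, Mmp3, Mmp1a, Mmp10, Mmp8, Mmp27, Mmp20 and Mmp7. Of the 8 that had a named probe, Mmp3 alone was measured on both arrays and Mmp10 on the control array alone. The other 6 were not well above background on either array, with signals between 2.67 and 20.9. Mmp3, stromelysin 1, which degrades many matrix proteins and activates other metalloproteinases, read 194 in control and 191 in knockout epidermis. Its difference was -0.24 ± 0.21, and turned to 0.11 under median scaling. Mmp10, stromelysin 2, a product of keratinocytes at the wound edge, read 22.2 in control and 8.25 in knockout epidermis, where it was not well above background. By its bound it was 2.14-fold lower, and the standard error of its log2 difference was 0.57, so the bound is not a strict minimum. Of the 482 genes measured on the control array alone, 37.6% had a bound of at least 2-fold. The Mmp10 bound shrank to -0.75 with median scaling and to -0.43 with normexp, so it passed 2-fold under 1 of the 5 scalings. Mmp13, the main interstitial collagenase of the mouse, read 14.5 and 2.97, not well above background on either array, so no fold is given. The genes that flank the run, Dcun1d5 and Tmem123, were bright and differed by -0.21 and -0.36.

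Mmp14, a metalloproteinase anchored in the cell membrane that activates the gelatinase Mmp2, differed by 0.02 ± 0.20. Its brighter probe read 2230 in control and 2630 in knockout epidermis, and its second probe, at 43.6 and 54.2, differed by 0.09 ± 0.26. With either probe the difference was smaller than its error, and it was at 0.37 under median scaling. Levels of different genes or probes are not ranked here, since probes bind with different strength.

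Outside the members, 16 of 18 further metalloproteinases had a named probe and 13 of them were not well above background on either array. The 3 measured were Mmp2, the gelatinase that Mmp14 activates, Mmp15 and Mmp17, both held in the membrane. Mmp2 read 272 and 222, a difference of -0.51, and Mmp15 read 113 and 178, a difference of 0.44. Mmp17 read 129 and 72.4 and was 2.08-fold lower (-1.05 ± 0.21), with -0.71 under median scaling and -0.72 under normexp. This list's median of -0.51 rests on these 3 genes.

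The tissue inhibitors split. Timp1, a soluble inhibitor that responds to many cytokines, read 27 in control and 54.7 in knockout epidermis, so the knockout signal was the higher. Its difference was 0.80 ± 0.26 (1.74-fold), at percentile 94.7 of all genes. It reached 1.15 with median scaling and 1.01 with quantile normalization and 0.24 with normexp. The second Timp1 probe was not well above background on either array, at 10.3 and 9.83, so Timp1 too was read by 1 dim probe. Timp3, which is bound to the matrix and also inhibits ADAM proteases, read 1020 and 908, a difference of -0.39 ± 0.20 that was -0.04 under median scaling. Of the other TIMP genes, Timp2 read 531 and 382 (-0.70) and Timp4 read 30.2 and 66.5 (0.92), both within 2-fold with 75th percentile scaling. Timp4 was at 1.27 with median scaling and 0.26 with normexp. Timp2 and Timp3 thus lay below 0 and Timp1 and Timp4 above 0. Of the further inhibitors, Spock2, a secreted proteoglycan, was measured on the control array alone. It was 2.34-fold lower by its bound, which was -0.88 with median scaling. The 8 genes of that list had a median of 0.11 over the 2 measured on both arrays, Timp2 and Timp4.

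**Figure D4:**
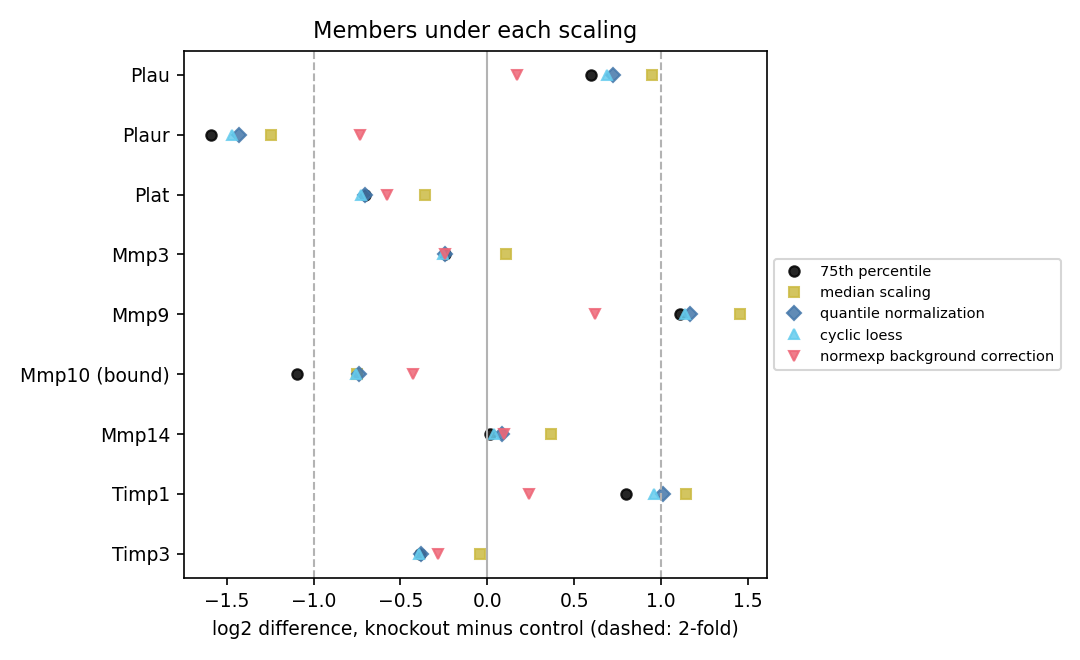
Log2 difference, knockout minus control, of the 9 members that could be measured on at least 1 array, under 75th percentile and median scaling, cyclic loess, quantile normalization and normexp, with Mmp10 as a bound. Plaur and Mmp9 lie beyond the dashed 2-fold lines under 4 of the 5 and keep their direction under all 5, and Mmp3 is the member whose sign turns, at 0.11 with median scaling.

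Related proteases of the ADAM and ADAMTS families, which shed cell surface proteins and cut proteoglycans, held a pair of larger differences. Of 8 measured on both arrays, 1 was at least 2-fold higher and 1 lower, with a median of -0.42. Adam8, a membrane protease of leukocytes and activated epithelium, read 9750 in control and 3040 in knockout epidermis (-1.90 ± 0.20, 3.74-fold lower). Adamts1 read 963 and 2510 at its brighter probe (1.16 ± 0.20, 2.24-fold higher), but its second probe differed by 0.47. By their gene-level probes both were at least 2-fold apart under each of the 5 scalings. Adamts4, an aggrecan-cutting enzyme, read 46 on the control array and was 4.43-fold lower by its bound, at -0.78 with normexp. Adam17, the enzyme that releases TNF from the cell surface, differed by 0.07, and Adam10 was not analysed here.

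Among other enzymes that degrade matrix or activate proteases, 2 of the 13 measured on both arrays were called lower and 0 higher, with a median of -0.24. Hyal1, a hyaluronidase, read 209 and 84.2 (-1.53 ± 0.21, 2.89-fold lower), and its second probe was at -1.66. Prss8, a membrane serine protease of the epidermal barrier, read 847 and 446 (-1.15 ± 0.20, 2.21-fold lower) and was at -0.80 under median scaling. St14, which encodes the protease matriptase that can activate urokinase, differed by 0.03 at its brighter probe and -0.39 at the other. The cathepsins Ctsb, Ctsd and Ctsl, which act mainly in lysosomes, lay between -0.37 and 0.23. By its other probe, Ctsb was at 0.37.

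AP-1 and ETS transcription factors were listed because AP-1, with ETS factors beside it, is a known regulator of Plaur and of several metalloproteinase genes. All 13 were measured on both arrays, 1 was called lower and 0 higher, with a median of -0.52 that was -0.17 under median scaling. Fosl1, which encodes the FOS family protein FRA-1, read 1650 in control and 554 in knockout epidermis (-1.79 ± 0.20, 3.47-fold lower) and was at least 2-fold lower under each of the 5 scalings. Fos, Jun and Junb, at 0.11, -0.63 and -0.32, were within 2-fold, with Junb at -0.07 by its other probe. Fosl2, which encodes FRA-2, gave no clear direction, since its probes were at 0.995 and -1.54. Ets2 was at -0.85, and the 3 Ets1 probes ranged from -1.36 to -0.54, with the brightest at -0.54.

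**Figure D5:**
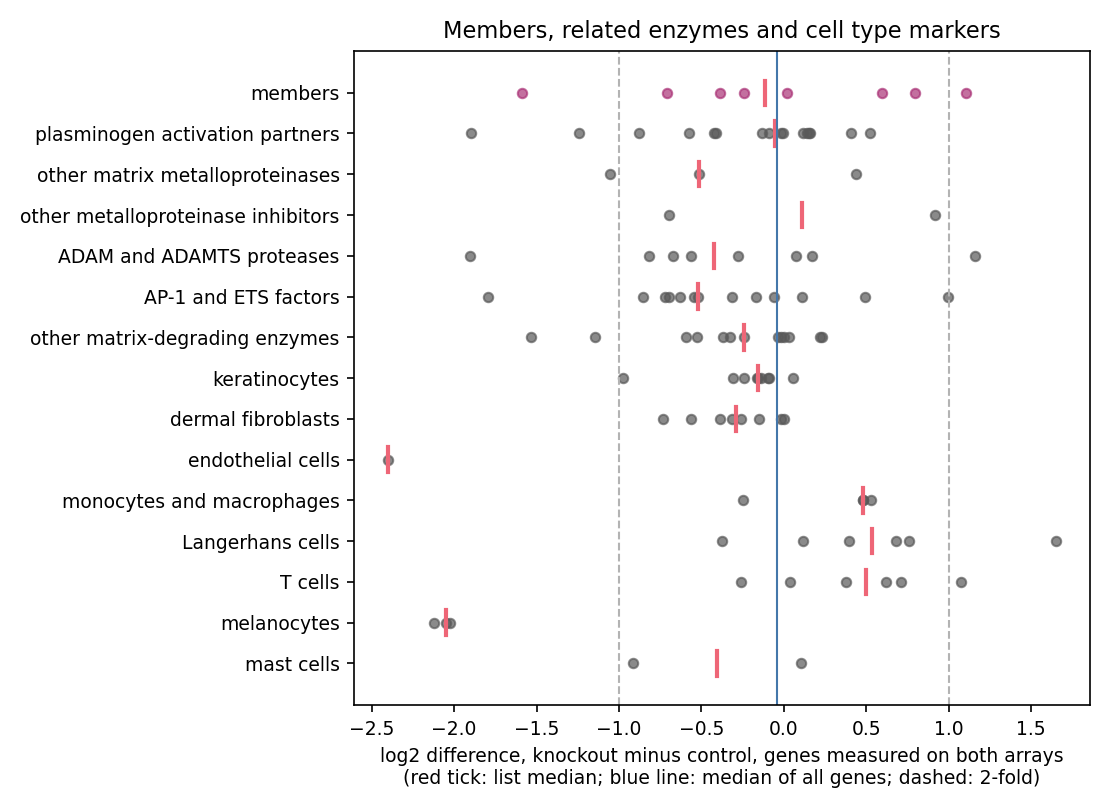
Log2 difference, knockout minus control, of each gene measured on both arrays, for the members, the related gene lists and the cell type markers, with red ticks for list medians and a blue line for the median of all genes at -0.04. The members spread from -1.59 to 1.11 around a median of -0.11, and the 3 measured melanocyte markers lie near -2.

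Markers of stromal, vascular and pigment cells are given beside Plat, Mmp3 and the TIMP genes. The 8 measured dermal fibroblast markers had a median of -0.29, which was 0.06 under median scaling, and summed levels of 35.4 in control and 28.8 in knockout epidermis in multiples of the 75th percentile. Col1a1 and Dcn among them differed by -0.02 and -0.73, and Pdgfra and Pdgfrb were not well above background on either array. Of 7 endothelial markers, only Vwf was measured on both arrays, at 236 and 52. It was 5.29-fold lower with 75th percentile scaling and was at -1.44 with normexp. Emcn was 5.35-fold lower by its bound with 75th percentile scaling. Tek was measured in knockout epidermis alone, at 4.6 and 19.2, and was 1.30-fold higher by its bound. Pecam1, Cdh5, Kdr and Tie1 were not well above background on either array. The 3 melanocyte markers measured, Dct, Tyrp1 and Pmel, were each at least 4-fold lower. The part of endothelial cells, melanocytes and fibroblasts in the differences of Plat, Mmp3, Timp1 and Timp3 was not tested. Of 6 T cell markers measured, 1 was at least 2-fold higher, Itgae at 1.07. Thy1, which is also on the fibroblast list, was at -0.26 and by its other probe at -1.23. Of 6 mast cell markers 2 were measured, with neither 2-fold apart.

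The position of the member spots on the array was also looked at. No spot that the scanner software marked non-uniform was found within 3 rows and 3 columns of any of the 16 member probes. The measured neighbours within that distance numbered from 17 to 31 around each member spot, had median differences from -0.43 to 0.09, and included at most 1 spot that differed by 4-fold. The authors' value table, which centres each probe over the 2 arrays, gave -1.60 for Plaur and 1.10 for Mmp9.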

How the data were processed

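Both arrays were scanned from 1 slide on 1 day. As deposited, the scanner files hold an intensity per spot after background subtraction and detrending in Agilent Feature Extraction 10.7.3.1, per the file headers. The authors' deposited value table holds log2 values centred for each probe, with column medians of 0.14 (control) and -0.14 (knockout). Its differences matched those of the scanner files across probes (Pearson r 1.00, median offset -0.01), which settles scale, centring and direction.

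Outlier spots were left out, spots of a probe averaged on the log2 scale and each array's 75th percentile over probes subtracted. Probes were named through RefSeq accessions in a table of GRCm38.p6, used for names and gene order, which named 64.8% of probes. A gene takes its brightest probe measured, that is well above background, on both arrays. A gene measured on 1 array alone has a bound against the higher of the dim signal and that array's lowest signal well above background. Bounds leave out scanner error, and some signals above that lowest value were still not well above background. Mmp7, for example, read 15.6 on the knockout array. A bound is therefore not a strict minimum. No spot was saturated. Signals were well above background for 56.2% and 56.3% of probes, and the number of arrays limits the precision.

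Named were all 10 members, Nfkbiz, list genes at least 2-fold apart or else the 2 brightest, and the main cell markers. Genes named beyond that (Plg, Adam17, St14, Anxa2, Ctsb and others within 2-fold) were chosen after their values were seen. Members and lists were chosen with earlier results of these data known. The brightness class and the TATA and NF-kB motifs were added after the data were seen. Alternatives used limma 3.58.1 in R 4.3.3, and the rest matplotlib 3.10.9, pandas 2.3.3, numpy 2.4.6 and Python 3.11.15. 1 gene of the lists is not reported here by name. Calling code was tested on simulated data.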

Additional observations from a re-analysis of the deposited data

How the results depend on the processing

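No paired analysis was possible because there is 1 array of each genotype, and leaving out a replicate was not possible for the same reason. Of the members at least 2-fold apart on both arrays, 1 was higher and 1 lower. The higher count was 2 with median scaling and with quantile normalization, where Timp1 joined Mmp9, 3 at 1.5-fold, and 0 both with normexp and at 3-fold. The lower count was 0 with normexp, 2 with genes measured on at least 1 array, 3 with no background filter and 2 at 1.5-fold. Over all genes, 376 higher and 544 lower became 1027 and 281 with median scaling, 183 and 229 with normexp, 106 and 188 at the 3-fold threshold, 1258 and 1636 at the 1.5-fold threshold, 669 and 1414 with no background filter, and 817 lower with genes measured on at least 1 array. Higher genes thus made up the smaller share with the 75th percentile and the larger share with median scaling. Plaur ranged from -1.60 to -0.73, Mmp9 from 0.62 to 1.46, Timp1 from 0.24 to 1.15 and Plau from 0.17 to 0.95 over all alternatives. Normexp adds an offset of 50, which is near the signals of these dim probes and shrinks their differences by construction. Dim signals limit Plau, Plaur, Timp1, Mmp10 and Mmp13.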
